A study of Homo sapiens with 7 samples.

Results

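Resistant clone 4 is a line of T47D cells, an established luminal breast cancer line that carries the estrogen receptor, grown out under the CDK4/6 inhibitor palbociclib. The comparison set its 2 RNA-seq libraries against the 3 libraries of the parental, palbociclib-sensitive T47D line, 5 of the 7 libraries of the series, chosen by the clone named in their labels and over every gene with enough counts. The clone had been kept for 6 months in palbociclib rising from 1 uM to 5 uM and is 1 clone, while the parental cells are labelled sensitive to it. Per the labels the experiments were run without the drug unless noted, and the cells grew with serum, insulin, EGF and hydrocortisone. The other 2 libraries come from resistant clone 2, raised by the same schedule, and entered the same fit, so that they help set the spread behind every call, and their values are given where clone 4 is compared with them. The labels call the libraries biological replicates without saying whether they are separate cultures, so p-values measure the spread between these libraries only.

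Palbociclib blocks CDK4 and CDK6, the kinases that with cyclin D inactivate the retinoblastoma protein RB. Active RB holds the E2F factors back and so keeps the genes of DNA replication and mitosis low; cells without RB no longer need CDK4 or CDK6 to enter S phase. Interferons are antiviral cytokines that signal through JAK kinases to a complex of STAT proteins and IRF9, which binds interferon-stimulated response elements in the promoters of antiviral and antigen-presentation genes. NF-kB is another inflammatory factor, held in the cytoplasm by I-kappa-B proteins such as NFKBIA and activated through TNF and interleukin receptors.

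The libraries held 14739350 and 12593774 counts in clone 4, against 12436758, 17524621 and 13993068 counts in parental cells. Mitochondrial genome transcripts took 12.6% and 15.6% of the counts in clone 4 and 10.1% to 10.4% in parental cells. Among the parental libraries replicate 3 stood a little apart, with correlations of log2 CPM (counts scaled to a common library total) of 0.992 and 0.991 with the other parental libraries, which correlated at 0.995 with each other. The 2 clone 4 libraries correlated at 0.992. Markers of luminal epithelium, such as KRT8, KRT18 and GATA3, were present in every library and summed to 12000 and 12800 CPM in clone 4 and 14700 to 17900 CPM in parental cells. Of 17502 genes tested, 7771 (44.4%) were called at an adjusted p under 0.05 (edgeR's quasi-likelihood test with Benjamini-Hochberg adjustment), 3862 (22.1%) higher and 3909 (22.3%) lower in clone 4, with a median log2 fold change over all genes of 0.005. At least 2-fold were 1479 (8.45%) of the calls higher and 1204 (6.88%) of them lower. The clone 4 and parental libraries did not overlap for 7668 of the called genes, so a lack of overlap adds little to a call. Over all genes tested, both clone 4 libraries lay above every parental library for 5435 genes and below every one for 5278. Below, "rose" and "fell" are used of genes called by this test, counts in brackets "without" a library are those found when it was left out, and levels are CPM scaled by edgeR's TMM factors. Summed levels of cell type markers, here and below, are CPM by the library total without those factors, so they differ a little in scale from single genes. Values in brackets beside a comparison with clone 2 are log2 differences, clone 4 minus clone 2.

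Of the 15 genes with the highest fold change in clone 4, 6 belong to the interferon response (IFI44L, IFI44, IFI27, XAF1, RSAD2 and IFI6), and promoter sequences of that response are shown first. In the RefSeq promoter windows (GRCh38.p14, 250 bases before to 50 after the start of each gene) the interferon-stimulated response element (GAAA and GAAA with any 2 bases between them), read on both strands, stood in 28 of the 41 interferon-induced genes that had a window (68.3%). It stood in 2.68% of the windows of all tested genes and in 9 of 16 windows of the class I antigen-presentation genes. Each line gives 30 bases of the gene's own strand, 5′ to 3′, with the element in capitals.
IFI44L (chr1:78620365-78620394, plus strand): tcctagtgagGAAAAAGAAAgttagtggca
IFI44 (chr1:78649761-78649790, plus strand): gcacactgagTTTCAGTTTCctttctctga
IFI6 (chr1:27672329-27672358, minus strand): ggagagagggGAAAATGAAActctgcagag
ISG15 (chr1:1013380-1013409, plus strand): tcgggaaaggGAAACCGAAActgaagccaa
IFIT3 (chr10:89327865-89327894, plus strand): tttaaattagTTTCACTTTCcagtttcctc
IFIT1 (chr10:89392497-89392526, plus strand): ctagctttagTTTCACTTTCccctttcggt
MX1 (chr21:41420559-41420588, plus strand): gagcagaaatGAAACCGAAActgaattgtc
BST2 (chr19:17405741-17405770, minus strand): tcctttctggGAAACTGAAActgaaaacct

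The IFI44L, ISG15, IFIT1, IFIT3 and BST2 windows hold a second element and the IFI6 window holds 3, some of which overlap. The windows of XAF1, RSAD2, OAS1 and CMPK2, which also rose, held no element of this spacing. Those of RSAD2 and OAS1 do hold GAAA and GAAA with only C between them, a spacing that was not searched for. The window of IFI27, on chromosome 14, is shown over its 250 bases before the start (chr14:94110486-94110735, plus strand) because its 2 elements, in capitals, lie 3 bases apart on opposite strands.
IFI27: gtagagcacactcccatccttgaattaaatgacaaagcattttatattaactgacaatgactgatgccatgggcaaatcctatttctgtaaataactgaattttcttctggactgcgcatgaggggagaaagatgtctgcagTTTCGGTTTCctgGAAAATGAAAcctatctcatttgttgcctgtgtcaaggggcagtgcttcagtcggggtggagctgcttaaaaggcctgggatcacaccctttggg

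A binding motif of NF-kB (GGGA, any base, then TTTCC, on either strand) was looked for in the same way. It stood in 5 of 17 windows of NF-kB subunits and regulators (29.4%), in 2 of 8 windows of chemokine genes and in 0.545% of the windows of all tested genes. Called genes that hold it include the ubiquitin editor TNFAIP3 and the I-kappa-B family members NFKBIA and NFKBIZ.
TNFAIP3 (chr6:137867182-137867211, plus strand): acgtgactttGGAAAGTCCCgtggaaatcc
NFKBIA (chr14:35404811-35404840, minus strand): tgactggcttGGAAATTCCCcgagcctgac
NFKBIZ (chr3:101827757-101827786, plus strand): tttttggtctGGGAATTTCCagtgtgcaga

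RB1, which encodes the retinoblastoma protein, was close to absent from clone 4. Its level was 0.137 and 0.25 CPM in clone 4, against 57.9, 49.6 and 58 CPM in parental cells (log2 fold change -8.13 with SE 0.24, edgeR adjusted p = 3.65e-11). The groups were far apart, with clone 2 between them at 28.3 and 29.1 CPM. Of its relatives, RBL2 (p130) fell to 34.5 and 33.3 CPM in clone 4, against 81, 70.3 and 84.6 CPM in parental cells (log2 fold change -1.21 with SE 0.11, edgeR adjusted p = 2.15e-06), with no overlap between the groups. RBL1 (p107) was not called, at 0.28 on the log2 scale (edgeR adjusted p = 0.0735).

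The loss at RB1 did not extend evenly to the genes beside it. All 8 tested genes before RB1 in the reference order along chromosome 13 (GENCODE annotation of GRCh38, used only for the order) had log2 fold changes between -1.39 (SUCLA2) and -0.33 (LCP1), and 7 of them fell. ITM2B, next to RB1, had 117 and 98 CPM in clone 4, against 171, 155 and 198 CPM in parental cells (log2 fold change -0.70 with SE 0.12, edgeR adjusted p = 0.000408), so that the groups lay close but did not overlap. Next after RB1 in this order, the lysophosphatidic acid receptor LPAR6 had 0 counts in both clone 4 libraries, against 23, 33 and 27 counts in parental cells (at least 17.2-fold lower with the group's floor at 3 counts, edgeR adjusted p = 1.04e-05). The order uses only the lower coordinate of each gene, so it cannot show whether LPAR6 lies beside RB1 or within it. RCBTB2 had 0.344 and 0 CPM in clone 4, against 0.825, 0.89 and 1.83 CPM in parental cells (log2 fold change -2.59 with SE 0.73, edgeR adjusted p = 0.0109). RCBTB2 was not called without clone 4 replicate 2 (edgeR adjusted p = 0.085).
FNDC3A then fell by about the amount seen over the whole chromosome (log2 fold change -1.07, SE 0.15) and CDADC1 was not called (-0.05, edgeR adjusted p = 0.832). CAB39L, a partner of the kinase LKB1, had 2.75 and 2.84 CPM in clone 4, against 28.1, 27 and 32.3 CPM in parental cells (log2 fold change -3.38 with SE 0.17, edgeR adjusted p = 4.17e-09). RCBTB1, 8 tested genes from RB1, was again without a count in clone 4, against 289, 348 and 256 counts in parental cells (at least 185-fold lower with the group's floor at 3 counts, edgeR adjusted p = 3.03e-09). In clone 2, LPAR6 was at 1.96 and 1.71 CPM and RCBTB1 at 8.62 and 8.85 CPM, so that both were read there, RCBTB1 below its parental level. The genes beside RB1 were chosen for their place after RB1's values were known.

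Among the genes that drive cells past the RB checkpoint most calls were upward, while those that restrain them were called about as often as genes at large. Of 15 tested drivers, 7 rose and 1 fell. Their median was 0.26 on the log2 scale, against 0.005 over all genes. The number that rose was 4 without clone 4 replicate 1 or parental replicate 1. Cyclin E1 (CCNE1), which activates CDK2, was at 14.2 and 18.5 CPM in clone 4, against 6.44, 6.41 and 8.28 CPM in parental cells (log2 fold change 1.21 with SE 0.17, edgeR adjusted p = 8.72e-05). The transcription factor E2F3 was at 41.5 and 45.2 CPM in clone 4, against 15.8, 16.4 and 25.2 CPM in parental cells (log2 fold change 1.18 with SE 0.17, edgeR adjusted p = 7.23e-05), and E2F1 rose by 0.76 on the log2 scale (SE 0.11, edgeR adjusted p = 6.89e-05). CDK6 rose to 5.98 and 6.93 CPM in clone 4, against 3.22, 2.19 and 3.67 CPM in parental cells (log2 fold change 1.10 with SE 0.22, edgeR adjusted p = 0.00115). None of these groups overlapped, and clone 2 stood higher still for CDK6 (14.5 and 16.3 CPM) and CCNE1 (22 and 27 CPM). CDK4, CDK2 and cyclin D1 (CCND1) were not called, at -0.15, -0.20 and -0.01 on the log2 scale (edgeR adjusted p = 0.249, 0.181 and 0.92). Of 20 brakes, 4 (7 without parental replicate 3) rose and 5 (2 without clone 4 replicate 2) fell, so that 45% were called, against 44.4% of all genes. The CDK inhibitor p21 (CDKN1A) had 47.3 and 43.6 CPM in clone 4, against 24.8, 26.3 and 24.1 CPM in parental cells (log2 fold change 0.86 with SE 0.10, edgeR adjusted p = 1.91e-05), and its relative CDKN1C rose by 1.77 on the log2 scale (SE 0.38).

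Genes of DNA replication and of mitosis were called no more often than genes at large, and the calls among mitosis genes were mostly lower. Of 35 E2F targets of S phase, 8 rose and 5 (3 without clone 4 replicate 2) fell, with a median of 0.07, and the number that rose was 4 without parental replicate 1, 5 without parental replicate 2, 13 without parental replicate 3. In all 37.1% of them were called, against 44.4% of all genes. The replication factors GINS1, CHAF1B and RFC2 rose by 0.69, 0.53 and 0.53 (SE 0.13, 0.11 and 0.11). The helicase subunits MCM2, MCM3, MCM5 and MCM7 were not called, at 0.01, -0.02, 0.05 and 0.02 on the log2 scale. Of 34 genes of G2 and mitosis, 2 (0 without clone 4 replicate 2 or parental replicate 1, 1 without parental replicate 2, clone 2 replicate 1 or clone 2 replicate 2) rose and 12 fell, with a median of -0.23. PLK1, a kinase of mitotic entry, was at 45.7 and 46.1 CPM in clone 4, against 101, 93.3 and 134 CPM in parental cells (log2 fold change -1.25 with SE 0.14, edgeR adjusted p = 1.12e-05), without overlap. PRC1, which bundles the central spindle, was at 110.5 and 98.1 CPM in clone 4, against 206, 184 and 239 CPM in parental cells (log2 fold change -1.01 with SE 0.12, edgeR adjusted p = 1.7e-05). ECT2, KIF23, BUB1B and NUSAP1 fell, with log2 fold changes of -0.93, -0.89, -0.88 and -0.82. All 5 list members on chromosome 15 were among the 12 that fell (PRC1, KIF23, BUB1B, NUSAP1 and CCNB2). Off chromosomes 9, 13, 15 and 16, the chromosomes with the lowest median fold changes, 5 of 27 fell. Of all genes tested, these chromosomes included, 22.3% fell. Over the whole mitosis list 41.2% were called, against 44.4% of all genes. MKI67 and CCNB1 were not called, at -0.33 and -0.11 on the log2 scale.

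The interferon response rose almost throughout. Of 50 interferon-induced effectors tested, 45 rose. Their median was 2.25 on the log2 scale, against 0.005 over all genes. Between 43 and 45 rose when any 1 library was left out. The 5 not called were TRIM22, HERC5, TRIM5, EPSTI1 and BTC, the last of them an EGF-family ligand. IFI27, a mitochondrial protein of the response, was at 434 and 399 CPM in clone 4, against 3.55, 3.85 and 2.05 CPM in parental cells (log2 fold change 7.03 with SE 0.17, edgeR adjusted p = 4.13e-12). IFI6, which inhibits apoptosis, was at 632 and 545 CPM in clone 4, against 19, 14.2 and 9.82 CPM in parental cells (log2 fold change 5.37 with SE 0.19, edgeR adjusted p = 2.24e-10). ISG15, the ubiquitin-like modifier, was at 235 and 237 CPM in clone 4, against 8.75, 8.66 and 6.96 CPM in parental cells (log2 fold change 4.86 with SE 0.12, edgeR adjusted p = 4.13e-12). In all 3 genes the clone 4 libraries lay far above the parental ones.
The GTPase MX1, which traps viral nucleocapsids, was at 559 and 374 CPM in clone 4, against 36.1, 27.1 and 20.2 CPM in parental cells (log2 fold change 4.07 with SE 0.22, edgeR adjusted p = 2.46e-07). The 2-5A synthetase OAS1 was at 143 and 93.2 CPM in clone 4, against 5.53, 5.75 and 3.81 CPM in parental cells (log2 fold change 4.55 with SE 0.19, edgeR adjusted p = 7.12e-10). IFI44L, an interferon-induced protein, had 65 and 26 counts in clone 4 and 0 counts in the 3 parental libraries (at least 48.8-fold higher with the group's floor at 3 counts, edgeR adjusted p = 6.64e-06). Clone 4 replicate 1 was the higher of the pair for each of the 6 genes but ISG15. Relative to clone 2, IFI27 and IFI44L were lower in clone 4 (log2 differences -1.29 and -1.88, edgeR adjusted p = 2.68e-05 and 0.000348), ISG15 was higher (0.61, edgeR adjusted p = 0.001), and IFI6, MX1 and OAS1 were not called apart (0.16, 0.04 and 0.25). Of the other effectors, IFI44 and RSAD2 were lower in clone 4 than in clone 2 (-0.78 and -0.74). LAMP3, a lysosomal protein of the response, was higher in clone 4 than in clone 2 (1.65, edgeR adjusted p = 0.000326).

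Along the pathway from ligand to factor some genes were called and others were not, where 44.4% of all genes tested were called. Of 9 interferons and receptors 55.6% were called. The share was 66.7% for the IRF and STAT factors and 66.7% for the sensors and adaptors. Of the ligands, the lambda interferon IFNL1 had 7 and 6 counts in clone 4 and 1, 0 and 1 counts in parental cells (a ratio of summed counts of 10.5, higher in clone 4, with an exact 95% interval of 2.37 to 95.4, edgeR adjusted p = 0.00704), while IFNA1, IFNA2, IFNG and IFNK had 0 counts in all 5 libraries and IFNB1 had 1 and 3 counts in clone 4, against 0, 0 and 1 counts in parental cells. The receptors IFNAR1 and IFNAR2 were not called, at -0.01 and 0.43 on the log2 scale, and IFNGR1 rose by 0.60 (SE 0.13). The receptor kinase JAK1 fell to 33.5 and 30.9 CPM in clone 4, against 63.9, 58.9 and 56.4 CPM in parental cells (log2 fold change -0.89 with SE 0.11, edgeR adjusted p = 2.06e-05). Of 15 IRF and STAT factors, 9 rose and 1 fell. IRF9, the DNA-binding part of the STAT complex, was at 6.94 and 8.85 CPM in clone 4, against 0.495, 0.771 and 0.366 CPM in parental cells (log2 fold change 3.79 with SE 0.29, edgeR adjusted p = 4.25e-07). IRF7 was at 64.1 and 79.9 CPM in clone 4, against 10.7, 9.9 and 8.65 CPM in parental cells (log2 fold change 2.88 with SE 0.13, edgeR adjusted p = 2.17e-09). STAT2 rose by 0.66 (SE 0.11), and STAT3 was not called, at 0.16 on the log2 scale.
Of 18 sensors and adaptors, 11 rose and 1 fell. The double-stranded RNA sensors DDX58 (RIG-I), IFIH1 (MDA5) and DHX58 rose by 2.08, 1.89 and 2.18 (SE 0.18, 0.15 and 0.15). TMEM173 (STING), which carries the signal of cytosolic DNA, was at 2.27 and 2.34 CPM in clone 4, against 0.495, 0.593 and 0.513 CPM in parental cells (log2 fold change 2.08 with SE 0.30, edgeR adjusted p = 0.000108), and MB21D1 (cGAS) had 1 and 3 counts in clone 4, against 0, 1 and 1 counts in parental cells. RNASEH2B, a subunit of the nuclease that removes RNA from DNA, is on chromosome 13 and fell, with a log2 fold change of -0.91 (SE 0.16), while the subunit RNASEH2A rose by 0.37. RNASEH2A was not called without parental replicate 1 (edgeR adjusted p = 0.0672). The adaptors MAVS and TBK1 were not called (-0.15 and -0.26).

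**Figure D1:**
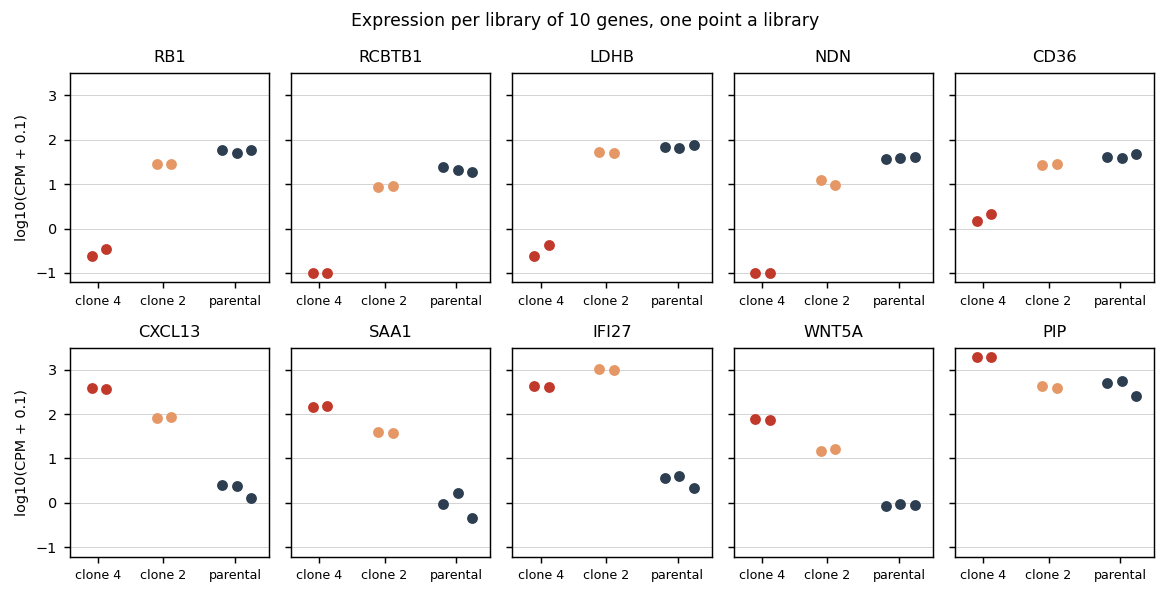
Level of 10 genes in each library as log10(CPM + 0.1), with clone 4 in red, clone 2 in orange and parental cells in dark blue from left to right, 1 point a library. The upper row holds genes lowest in clone 4 (RB1, RCBTB1, LDHB, NDN, CD36), and the lower row genes higher in clone 4 than in parental cells (CXCL13, SAA1, IFI27, WNT5A, PIP); IFI27 alone of the lower row is highest in clone 2.

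Antigen presentation rose as well. Of 19 class I genes, which present peptides to cytotoxic T cells, 14 rose and 3 fell, with a median of 1.00. The immunoproteasome subunit PSMB9 was at 36.8 and 36.9 CPM in clone 4, against 9.98, 9.55 and 11 CPM in parental cells (log2 fold change 1.86 with SE 0.12, edgeR adjusted p = 5.93e-08). The proteasome activator PSME2, on chromosome 14, was at 269 and 280.1 CPM in clone 4, against 67.6, 76.5 and 79.2 CPM in parental cells (log2 fold change 1.88 with SE 0.10, edgeR adjusted p = 7.77e-09). HLA-B and HLA-C rose by 0.87 and 0.74 (SE 0.09 and 0.09). HLA genes share long stretches of sequence, so the split of reads among them is uncertain. The peptide-trimming peptidase ERAP1 and the disulfide isomerase PDIA3, which helps load peptides, fell, with log2 fold changes of -0.66 and -0.71.

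Class II genes, which usually belong to professional antigen-presenting cells and present to helper T cells, rose too. Of 11 tested, 10 rose and the other 1 was not called, with a median of 1.86. Of the 10 that rose, 8 lie on chromosome 6, as do 9 of the 14 class I genes that rose. The highest run of 25 genes on that chromosome, from TNXB to TAP1, had a median log2 fold change of 0.927. Members of these lists that lie in the run were not left out of its median, so it is no separate background for them. The invariant chain CD74 was at 58.2 and 65 CPM in clone 4, against 4.62, 6.52 and 4.62 CPM in parental cells (log2 fold change 3.53 with SE 0.14, edgeR adjusted p = 4.91e-10). HLA-DRA was at 8.24 and 9.1 CPM in clone 4, against 0.247, 0.356 and 0.44 CPM in parental cells (log2 fold change 4.59 with SE 0.25, edgeR adjusted p = 1.04e-08). The groups did not overlap, and both genes were lower in clone 4 than in clone 2 (log2 differences -1.27 and -1.78). CIITA, the master factor of class II genes, rose by 0.61 (SE 0.13, edgeR adjusted p = 0.00205). The summed level of 16 leukocyte markers was 15.5 and 14.6 CPM in clone 4 and 11.1 to 11.4 CPM in parental cells, with TYROBP and MS4A1 at 0 in all 5 libraries and PTPRC (CD45) at 0 and 0 counts in clone 4, against 0, 1 and 1 counts in parental cells. Of the 6 leukocyte markers tested 2 rose. ITGAM (CD11b), an integrin of myeloid cells, had 28 and 26 counts in clone 4, against 0, 1 and 1 counts in parental cells (a ratio of summed counts of 43.4, higher in clone 4, with an exact 95% interval of 11.5 to 368, edgeR adjusted p = 5.34e-06). The lysosomal protein CD68 was at 4.6 and 4.59 CPM in clone 4, against 2.31, 1.72 and 1.83 CPM in parental cells (log2 fold change 1.25 with SE 0.25, edgeR adjusted p = 0.00131). Their part in the class II rise was not tested. In bulk RNA, more cells of a type and more RNA per cell cannot be told apart.

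Among the surface proteins that restrain immune attack, the complement shields CD46 and CD55 and the phagocytosis inhibitor CD47 fell, with log2 fold changes of -0.54, -0.91 and -0.72 (SE 0.10, 0.16 and 0.10). Of 17 checkpoint and NK-cell ligands tested, 4 (1 without clone 4 replicate 2, 2 without parental replicate 3) rose and 6 fell. Thus 58.8% of these ligands were called, against 44.4% of all genes. The galectin LGALS9 was at 1.24 and 0.751 CPM in clone 4, against 0.165, 0.119 and 0.0733 CPM in parental cells (log2 fold change 3.02 with SE 0.52, edgeR adjusted p = 0.00041). TNFRSF14, VTCN1 and MICA rose by 0.92, 0.74 and 0.47. TNFRSF14 was not called without clone 4 replicate 2 (edgeR adjusted p = 0.119). VTCN1 was not called without clone 4 replicate 1, clone 4 replicate 2, parental replicate 3, clone 2 replicate 1 or clone 2 replicate 2 (edgeR adjusted p between 0.0525 and 0.11). MICA was not called without clone 4 replicate 2, parental replicate 1 or parental replicate 3 (edgeR adjusted p between 0.0519 and 0.167). CD274 (PD-L1) was not called, at 0.75 on the log2 scale (edgeR adjusted p = 0.282). Of 9 complement components, 5 rose and the other 4 were not called. C3, the hub of the cascade, was at 119.6 and 116 CPM in clone 4, against 7.18, 9.19 and 7.11 CPM in parental cells (log2 fold change 3.90 with SE 0.12, edgeR adjusted p = 5.95e-11). C3 was also higher than in clone 2 (0.55, edgeR adjusted p = 0.00296), as was the protease C1R (3.01 against parental cells and 2.06 against clone 2).

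Inflammatory genes outside the interferon lists were among the highest of all. CXCL13, the chemokine that draws B cells into follicles, was at 377 and 367 CPM in clone 4, against 2.48, 2.25 and 1.17 CPM in parental cells (log2 fold change 7.55 with SE 0.17, edgeR adjusted p = 4.13e-12). It was at 82.3 and 84.3 CPM in clone 2, so that clone 4 lay above both (log2 difference 2.16, edgeR adjusted p = 3.11e-07). The acute-phase protein SAA1 was at 145 and 152 CPM in clone 4, against 0.825, 1.54 and 0.366 CPM in parental cells (log2 fold change 7.26 with SE 0.22, edgeR adjusted p = 3.65e-11), again above clone 2 (1.95). SAA2, a near copy of SAA1 whose reads may be split with it, rose by 5.82 (SE 0.25). The iron-binding lipocalin LCN2 was at 83.9 and 97.7 CPM in clone 4, against 1.49, 3.14 and 1.1 CPM in parental cells (log2 fold change 5.50 with SE 0.22, edgeR adjusted p = 4.91e-10) and was not called apart from clone 2 (-0.41, edgeR adjusted p = 0.0837).
Of 10 chemokines in the list, which did not hold CXCL13, 7 rose and 1 fell. CXCL10 had 17 and 15 counts in clone 4 and 1, 0 and 0 counts in parental cells (a ratio of summed counts of 51.5, higher in clone 4, with an exact 95% interval of 8.6 to 2100, edgeR adjusted p = 0.000145). CCL20 was at 3.85 and 3 CPM in clone 4, against 0.33, 0.0593 and 0 CPM in parental cells (log2 fold change 4.77 with SE 0.52, edgeR adjusted p = 8.31e-06). The stromal chemokine CXCL12, an estrogen-induced gene in breast cancer cells, fell to 62.4 and 47.8 CPM in clone 4, against 159, 146 and 118 CPM in parental cells (log2 fold change -1.35 with SE 0.15, edgeR adjusted p = 7.72e-06). CXCL9, CXCL6 and CCL5 had 0 counts in all 5 libraries.

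Of 20 NF-kB subunits and regulators, 11 rose and 2 fell. NFKBIA, whose promoter site is printed above, was at 215 and 192 CPM in clone 4, against 46.8, 39.1 and 37.3 CPM in parental cells (log2 fold change 2.31 with SE 0.11, edgeR adjusted p = 3.99e-09). TNFAIP3 was at 13.1 and 15.6 CPM in clone 4, against 1.49, 2.25 and 1.54 CPM in parental cells (log2 fold change 2.99 with SE 0.20, edgeR adjusted p = 9.18e-08). The apoptosis inhibitor BIRC3 was at 69 and 56.5 CPM in clone 4, against 4.29, 3.2 and 4.32 CPM in parental cells (log2 fold change 4.01 with SE 0.15, edgeR adjusted p = 2.28e-10). In each the lowest clone 4 library was above the highest parental library, and none was called apart from clone 2. The subunits NFKB2 and RELB rose by 1.5 and 1.35 (SE 0.10 and 0.17), while RELA and NFKB1 were not called, at 0.07 and 0.16 on the log2 scale. CYLD, a brake on the pathway, fell, with a log2 fold change of -1.08 (SE 0.14); it lies on chromosome 16.
The ligand LTB (lymphotoxin beta) was at 9 and 10.3 CPM in clone 4, against 0.0825, 0.0593 and 0.586 CPM in parental cells (log2 fold change 5.31 with SE 0.39, edgeR adjusted p = 2.51e-07). TNF was at 2.82 and 2.59 CPM in clone 4, against 0.495, 0.949 and 0.44 CPM in parental cells (log2 fold change 2.04 with SE 0.33, edgeR adjusted p = 0.000252). LTB was higher in clone 4 than in clone 2 (1.54, edgeR adjusted p = 0.00121). The death receptor FAS fell to 10.4 and 9.43 CPM in clone 4, against 26.6, 25.6 and 38.1 CPM in parental cells (log2 fold change -1.59 with SE 0.18, edgeR adjusted p = 1.17e-05). Of 24 genes of the gp130 cytokine family and STAT3 feedback, 10 rose and 5 (3 without clone 4 replicate 1) fell. The feedback inhibitor SOCS3 was at 12.6 and 12.3 CPM in clone 4, against 2.31, 2.91 and 2.13 CPM in parental cells (log2 fold change 2.33 with SE 0.18, edgeR adjusted p = 4.82e-07) and above clone 2 (1.17), and the ligand LIF rose by 3.32 (SE 0.33).

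**Figure D2:**
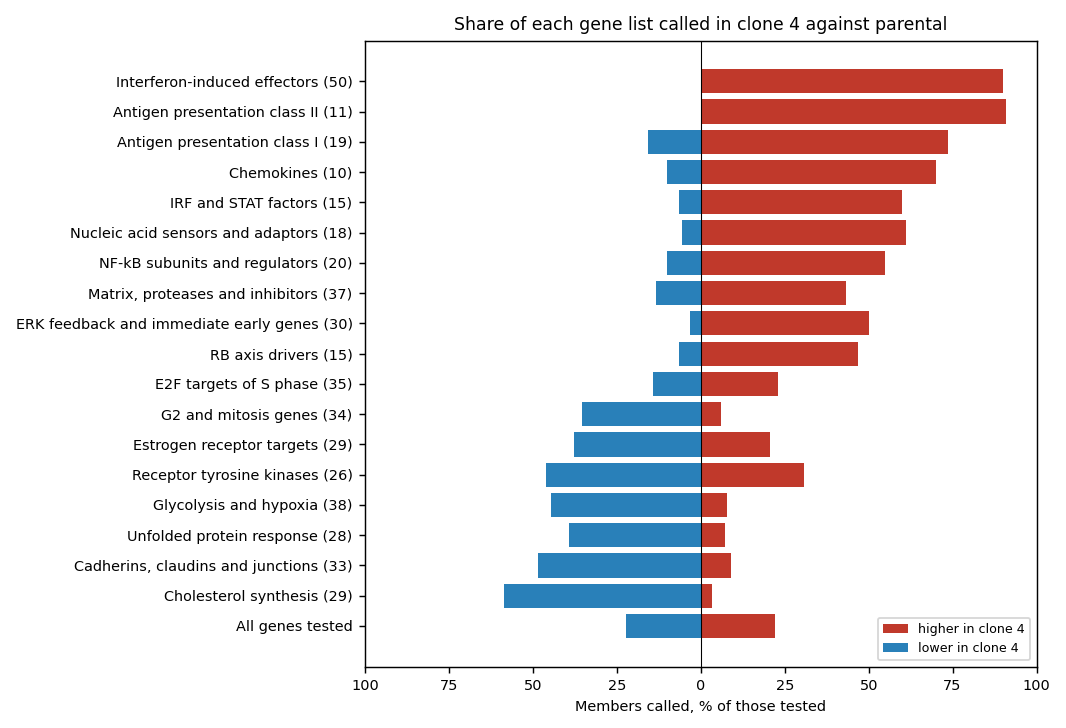
Share of the tested members of 18 gene lists called higher (red, to the right) or lower (blue, to the left) in clone 4 against parental cells, in percent, with the number tested in parentheses and all genes tested in the bottom row. Interferon effectors and class II genes stand almost wholly to the right, and cholesterol synthesis and junction genes mostly to the left.

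The factors that define luminal cells, the estrogen receptor ESR1, GATA3 and FOXA1, were not called, at -0.05, 0.00 and -0.20 on the log2 scale (edgeR adjusted p = 0.72, 0.983 and 0.108). ESR1 was at 179 and 162 CPM in clone 4, against 183, 169 and 176 CPM in parental cells, so the groups overlapped, and at 88.4 and 95 CPM in clone 2. Of 26 luminal genes 4 (2 without clone 4 replicate 1, parental replicate 1, clone 2 replicate 1 or clone 2 replicate 2) rose and 8 (5 without clone 4 replicate 2) fell. In all 46.2% of the luminal genes were called, against 44.4% of all genes. The keratin KRT8 fell to 3296 and 3785 CPM in clone 4, against 5870, 6284 and 8451 CPM in parental cells (log2 fold change -0.96 with SE 0.15, edgeR adjusted p = 0.000169). CDH1 (E-cadherin) fell, with a log2 fold change of -0.46 (SE 0.11). The summed level of 14 basal and myoepithelial markers was 175 and 245 CPM in clone 4 and 78.9 to 134 CPM in parental cells, most of it the keratin KRT15, which was at 161 and 241 CPM in clone 4, against 60.6, 71.8 and 109 CPM in parental cells (log2 fold change 1.32 with SE 0.24, edgeR adjusted p = 0.00212). The basal keratin KRT5 had 7 and 2 counts in clone 4 and 0, 1 and 0 counts in parental cells, and the smooth muscle myosin MYH11 fell, with a log2 fold change of -0.99. The part of the basal markers in the luminal counts was not tested.
Of 29 targets of the estrogen receptor, 6 rose and 11 fell, against 22.1% higher and 22.3% lower over all genes. RET, a receptor kinase induced by estrogen, was at 12.2 and 14.1 CPM in clone 4, against 2.97, 3.2 and 3.52 CPM in parental cells (log2 fold change 2.02 with SE 0.17, edgeR adjusted p = 9.33e-07). SUSD3, a membrane protein of estrogen-receptor-positive cells, was at 1.24 and 1.08 CPM in clone 4, against 37.1, 37.1 and 31.2 CPM in parental cells (log2 fold change -4.90 with SE 0.19, edgeR adjusted p = 4.75e-10), below clone 2 as well (-2.96). The progesterone receptor PGR fell, with a log2 fold change of -0.83 (SE 0.21). PGR was not called without clone 4 replicate 2 (edgeR adjusted p = 0.112).
The apocrine secretory genes PIP and AZGP1 both lie on chromosome 7. PIP was at 1885 and 1925 CPM in clone 4, against 499.9, 544 and 249 CPM in parental cells (log2 fold change 2.15 with SE 0.29, edgeR adjusted p = 0.000942). AZGP1 was at 1266 and 1205 CPM in clone 4, against 379, 394 and 185 CPM in parental cells (log2 fold change 1.95 with SE 0.29, edgeR adjusted p = 0.0014). Neither pair of groups overlapped, and parental replicate 3 was the lowest parental library for both. PIP was also above clone 2 (424 and 388 CPM, log2 difference 2.23, edgeR adjusted p = 0.00222). Among other androgen-responsive genes, FKBP5 and APOD fell, with log2 fold changes of -0.78 and -1.07, and TMPRSS2 rose by 1.05.

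Growth factor receptors and their ligands moved in both directions. Of 26 tested receptor tyrosine kinases 8 rose and 12 fell, and of 26 ligands 9 rose and 5 fell. Thus 76.9% of the receptors and 53.8% of the ligands were called, against 44.4% of all genes. The insulin-like growth factor IGF2 was at 22 and 18.9 CPM in clone 4, against 1.73, 1.48 and 2.35 CPM in parental cells (log2 fold change 3.47 with SE 0.19, edgeR adjusted p = 1.53e-08). IGFBP3, which binds such factors outside the cell, was at 42.3 and 44.8 CPM in clone 4, against 0.99, 0.415 and 0.147 CPM in parental cells (log2 fold change 6.44 with SE 0.26, edgeR adjusted p = 4.75e-10). Both were higher than in clone 2 (1.46 and 0.63). The receptor IGF1R, on chromosome 15, fell to 53 and 48.7 CPM in clone 4, against 107, 103 and 108 CPM in parental cells (log2 fold change -1.06 with SE 0.10, edgeR adjusted p = 2.35e-06). The adaptor IRS1 fell to 5.22 and 4.01 CPM in clone 4, against 14.8, 12 and 10.6 CPM in parental cells (log2 fold change -1.42 with SE 0.19, edgeR adjusted p = 4.49e-05). FGFR3 and EPHA4 fell, with log2 fold changes of -1.68 and -2.04 (SE 0.15 and 0.16). GAS6, a chromosome 13 ligand of the TAM receptors, was at 32.4 and 39.4 CPM in clone 4, against 204, 207 and 150.3 CPM in parental cells (log2 fold change -2.38 with SE 0.15, edgeR adjusted p = 5.93e-08), while its receptors moved apart: TYRO3 fell, with a log2 fold change of -1.07, and MERTK had 13 and 8 counts in clone 4 and 1, 0 and 1 counts in parental cells (a ratio of summed counts of 16.9, higher in clone 4, with an exact 95% interval of 4.13 to 149, edgeR adjusted p = 0.0012). ANGPT1, a ligand of the endothelial receptor TEK, was at 0.275 and 0.167 CPM in clone 4, against 46.1, 40.5 and 39.4 CPM in parental cells (log2 fold change -7.48 with SE 0.25, edgeR adjusted p = 1.01e-10).

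Of 30 ERK feedback and immediate early genes, 15 rose and 1 fell, with a median of 0.34. The feedback inhibitor SPRY4 was at 4.26 and 5.18 CPM in clone 4, against 0.495, 0.712 and 0.586 CPM in parental cells (log2 fold change 2.93 with SE 0.28, edgeR adjusted p = 2.29e-06), and PHLDA1 rose by 1.01 (SE 0.12). DUSP6, a phosphatase of ERK, was not called, at 0.13 on the log2 scale. FOS fell to 5.98 and 3 CPM in clone 4, against 15.3, 9.19 and 8.14 CPM in parental cells (log2 fold change -1.23 with SE 0.31, edgeR adjusted p = 0.00871). Clone 2 had 163 and 154 CPM of FOS. FOS was not called without clone 4 replicate 2 (edgeR adjusted p = 0.11).

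WNT5A, the ligand of the non-canonical Wnt branch, was at 77 and 71.5 CPM in clone 4, against 0.743, 0.83 and 0.806 CPM in parental cells (log2 fold change 6.53 with SE 0.16, edgeR adjusted p = 4.13e-12), some way above its 14.8 and 16 CPM in clone 2 (log2 difference 2.27, edgeR adjusted p = 7.36e-08). NKD2, an inhibitor of canonical Wnt signalling, was at 10.1 and 15 CPM in clone 4, against 0.412, 0.119 and 0.147 CPM in parental cells (log2 fold change 5.82 with SE 0.34, edgeR adjusted p = 3e-08). The groups did not overlap in either gene. Of the receptors, FZD6 had 0 and 1 counts in clone 4 and 67, 94 and 83 counts in parental cells (a ratio of summed counts of 152, lower in clone 4, with an exact 95% interval of 27 to 6020, edgeR adjusted p = 5.33e-07), ROR2 fell, with a log2 fold change of -0.83 (SE 0.11), and FZD2, FZD5 and FZD7 were not called (0.10, 0.17 and -0.34). Over the whole list of Wnt and Notch genes 6 rose and 7 fell of 33, so that 39.4% were called, against 44.4% of all genes.

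Genes that hold epithelial cells to each other were mostly lower or not called. Of 33 cadherin, claudin and junction genes, 16 fell and 3 rose, with a median of -0.35, and the number that fell was 11 to 16 with any 1 library left out. The tight-junction protein CLDN1 fell to 189 and 174 CPM in clone 4, against 724, 676 and 871 CPM in parental cells (log2 fold change -2.06 with SE 0.12, edgeR adjusted p = 3.25e-08). The gap-junction protein GJA1 fell to 47.8 and 36.4 CPM in clone 4, against 219, 172 and 126 CPM in parental cells (log2 fold change -2.03 with SE 0.20, edgeR adjusted p = 1.3e-05). CLDN1 was lower still in clone 2, at 85.6 and 86.1 CPM. The scaffold protein TJP1, on chromosome 15, fell, with a log2 fold change of -0.91, and the desmosomal DSP fell too (-0.88). CLDN3, CLDN4 and CLDN7 were not called (0.12, -0.12 and 0.10). Off chromosomes 9, 13, 15 and 16, 12 of 26 junction genes fell. The summed level of 10 endothelial markers was 6.85 and 6.75 CPM in clone 4 and 1.83 to 3.36 CPM in parental cells. The 2 tested, the junction proteins CLDN5 and ESAM, rose by 2.75 and 1.10, while PECAM1, KDR, TEK and EMCN were at 0 in all 5 libraries. The part of the endothelial markers in the junction counts was not tested.
Of 24 integrins and laminins, 9 fell and 5 (3 without parental replicate 1, clone 2 replicate 1 or clone 2 replicate 2) rose. Thus 58.3% of the integrins and laminins were called, against 44.4% of all genes. The collagen receptor subunit ITGA2 fell to 7.83 and 5.18 CPM in clone 4, against 23.4, 20.3 and 20.4 CPM in parental cells (log2 fold change -1.70 with SE 0.17, edgeR adjusted p = 4.85e-06). ITGA10 rose by 1.71 (SE 0.15). Of 37 matrix genes, 16 rose and 5 fell, with a median of 0.43. COL12A1, a collagen of the fibril surface, was at 274 and 226 CPM in clone 4, against 31.8, 27.7 and 35.5 CPM in parental cells (log2 fold change 2.99 with SE 0.12, edgeR adjusted p = 6.54e-10), and above clone 2 (1.83). The protease inhibitor TIMP3 was at 12.6 and 14.4 CPM in clone 4, against 0.743, 0.534 and 0.586 CPM in parental cells (log2 fold change 4.44 with SE 0.22, edgeR adjusted p = 4.17e-09). The summed level of 12 fibroblast markers was 82.7 and 109 CPM in clone 4 and 56.3 to 63 CPM in parental cells, with PDGFRB, FAP and POSTN at 0 in all 5 libraries. Most of that sum was the collagen COL1A1, which was at 71.4 and 104 CPM in clone 4, against 39.5, 41.6 and 41.3 CPM in parental cells (log2 fold change 1.10 with SE 0.14, edgeR adjusted p = 2.41e-05). Of the other fibroblast markers tested, the matrix protein FBLN1 rose by 1.14 and the actin ACTA2 fell, with a log2 fold change of -0.85. FBLN1 was not called without clone 4 replicate 1, clone 4 replicate 2 or parental replicate 2 (edgeR adjusted p between 0.0616 and 0.0812). The part of the fibroblast markers in the matrix gene counts was not tested.

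Calls among sterol synthesis genes were nearly all downward. Of 29 cholesterol genes, 17 fell and 1 rose, with a median of -0.43, and between 12 and 19 fell when 1 library was left out. The sterol dehydrogenase NSDHL was at 22.5 and 22.2 CPM in clone 4, against 85.8, 96.2 and 65.2 CPM in parental cells (log2 fold change -1.88 with SE 0.15, edgeR adjusted p = 5.98e-07). The transcription factor SREBF1 was at 77.4 and 91.6 CPM in clone 4, against 175, 170.5 and 164 CPM in parental cells (log2 fold change -1.01 with SE 0.10, edgeR adjusted p = 5.3e-06). In both the groups did not overlap. The sterol response element TCACNCCAC stood in 1 of 22 promoter windows of these genes and in 1.15% of the windows of all tested genes. Of 30 fatty acid genes, 13 (8 without clone 4 replicate 2) fell and 6 rose. The fatty acid transporter CD36 was at 1.37 and 2 CPM in clone 4, against 40.5, 39.6 and 46.5 CPM in parental cells (log2 fold change -4.66 with SE 0.18, edgeR adjusted p = 4.75e-10), and far below its level in clone 2 (27.1 and 28 CPM, log2 difference -4.04). The desaturase SCD fell to 394 and 373 CPM in clone 4, against 887, 811 and 619 CPM in parental cells (log2 fold change -1.01 with SE 0.13, edgeR adjusted p = 4.83e-05), and stood above clone 2 (1.07).

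LDHB, the lactate dehydrogenase subunit that favours the use of lactate, was almost absent from clone 4. It was at 0.137 and 0.334 CPM in clone 4, against 70.1, 65.2 and 75.4 CPM in parental cells (log2 fold change -8.22 with SE 0.24, edgeR adjusted p = 2.65e-11), and clone 2 kept 52.9 and 49.3 CPM. Of 38 genes of glycolysis and hypoxia, 17 fell and 3 (0 without clone 4 replicate 1, 1 without clone 2 replicate 1 or clone 2 replicate 2) rose, with a median of -0.33. PGK1 fell to 149 and 112 CPM in clone 4, against 309, 273 and 262 CPM in parental cells (log2 fold change -1.10 with SE 0.13, edgeR adjusted p = 1.33e-05), and PKM, on chromosome 15, fell too (log2 fold change -0.86, SE 0.10). GAPDH and GPI were not called, at 0.09 and -0.17 on the log2 scale, and the glucose transporter SLC2A1 had -0.25.
The unfolded protein response list had a median of -0.58, with 11 of 28 lower and 2 (1 without clone 4 replicate 1, clone 4 replicate 2, parental replicate 1, parental replicate 3, clone 2 replicate 1 or clone 2 replicate 2) higher, and it moved with the libraries used: the number that fell was 5 without clone 4 replicate 2, 22 without parental replicate 3. Of this list 46.4% were called, against 44.4% of all genes. Its chaperone HSPA5 was at 1141 and 936 CPM in clone 4, against 3070, 3795 and 1235 CPM in parental cells, with parental replicate 3 closest to clone 4, and was not called (edgeR adjusted p = 0.0829). DNAJC3, a co-chaperone encoded on chromosome 13, fell to 28.7 and 27.8 CPM in clone 4, against 137, 138 and 86.9 CPM in parental cells (log2 fold change -2.10 with SE 0.18, edgeR adjusted p = 9.02e-07). The endoplasmic reticulum factor CREB3L1 was at 7.76 and 7.01 CPM in clone 4, against 0.247, 0.652 and 0.147 CPM in parental cells (log2 fold change 4.28 with SE 0.35, edgeR adjusted p = 6.25e-07).
Lysosomal genes fell in 15 (9 without clone 4 replicate 2 or parental replicate 1) and rose in 5 (3 without clone 4 replicate 1, parental replicate 1, clone 2 replicate 1 or clone 2 replicate 2) of 42. In all 47.6% of the lysosomal genes were called, against 44.4% of all genes. The membrane protein LAMP1, on chromosome 13, was at 91.2 and 74 CPM in clone 4, against 338, 326 and 308 CPM in parental cells (log2 fold change -1.97 with SE 0.11, edgeR adjusted p = 2.45e-08). The protease CTSB was at 117 and 102 CPM in clone 4, against 362, 360.2 and 304 CPM in parental cells (log2 fold change -1.64 with SE 0.12, edgeR adjusted p = 1.48e-07).

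Transcripts of the mitochondrial genome rose in 8 of 15, with a median of 0.37; the number that rose was 5 without clone 4 replicate 2, and clone 4 replicate 2 had the highest mitochondrial share. The ribosomal RNA MT-RNR2 was at 6835 and 8366 CPM in clone 4, against 3660, 4073 and 3825 CPM in parental cells (log2 fold change 0.98 with SE 0.11, edgeR adjusted p = 1.31e-05). Of 56 nuclear genes of oxidative phosphorylation, 10 (17 without clone 4 replicate 1, 3 without clone 4 replicate 2 or parental replicate 1, 6 without clone 2 replicate 1) rose and 14 (8 without clone 4 replicate 2) fell, and 42.9% were called, close to the 44.4% of all genes. Of 76 cytosolic ribosomal proteins, 27 rose and 10 fell, but the number that rose was 13 without clone 4 replicate 2 or parental replicate 1, 17 without clone 2 replicate 1 or clone 2 replicate 2. Of these ribosomal proteins 48.7% were called, against 44.4% of all genes, and 22.1% of all genes rose. Against the upward direction RPL21, on chromosome 13, and RPL10, on the X chromosome, fell, with log2 fold changes of -1.21 and -1.15 (SE 0.10 and 0.14).

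Homologous recombination genes were called about as often as genes at large. In homologous recombination 7 (4 without clone 4 replicate 2, 11 without parental replicate 3) of 38 rose and 9 (4 without clone 4 replicate 2) fell, so that 42.1% were called, against 44.4% of all genes, and of the 9 that fell 6 lie on chromosomes 9, 13, 15 and 16. BRCA2, on chromosome 13, was at 4.4 and 2.84 CPM in clone 4, against 9.65, 6.7 and 9.09 CPM in parental cells (log2 fold change -1.20 with SE 0.23, edgeR adjusted p = 0.000923), while BRCA1 was not called, at 0.02 on the log2 scale. The excision repair ligase scaffold CUL4A and the end-joining ligase LIG4, both on chromosome 13, fell, with log2 fold changes of -1.68 and -1.35 (SE 0.11 and 0.18), and PARP2, on chromosome 14, rose by 1.19 (SE 0.13).
In the cell death list 12 rose and 4 fell of 32, so that 50% were called, against 44.4% of all genes. RIPK3, the kinase that starts necroptosis, had 0 counts in both clone 4 libraries and 18, 24 and 17 counts in parental cells (at least 12.2-fold lower with the group's floor at 3 counts, edgeR adjusted p = 0.000106), although chromosome 14, where it lies, was higher as a whole. Clone 2 had 0 counts as well. The RIPK3 substrate MLKL rose to 9.62 and 8.6 CPM in clone 4, against 3.96, 3.68 and 2.71 CPM in parental cells (log2 fold change 1.40 with SE 0.19, edgeR adjusted p = 5.76e-05), and caspase 8 (CASP8) rose by 1.02 (SE 0.13). MCL1, BCL2L1 and BAX were not called, at -0.24, 0.04 and 0.24 on the log2 scale.

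Some genes passed between being read and being near absent. With at most 3 counts over the group on one side and at least 100 on the other, 13 genes were off and 3 were on in clone 4. NDN, an imprinted growth suppressor on chromosome 15, had 0 counts in clone 4, against 454, 666 and 553 counts in parental cells (at least 347-fold lower with the group's floor at 3 counts, edgeR adjusted p = 3.98e-10). Clone 2 kept 12 and 9.5 CPM. The cancer-testis antigens of the MAGE-A cluster on the X chromosome were near absent. MAGEA6 had 1 and 0 counts in clone 4, against 602, 752 and 681 counts in parental cells (a ratio of summed counts of 1.27e+03, lower in clone 4, with an exact 95% interval of 227 to 50000, edgeR adjusted p = 2.38e-10). MAGEA3 had 0 counts in clone 4, against 130, 163 and 153 counts in parental cells (at least 92.4-fold lower with the group's floor at 3 counts, edgeR adjusted p = 2.55e-08). MAGEA6 was at 0 counts in clone 2 too, while MAGEA1, at 0.206 and 0.0835 CPM in clone 4, against 8.09, 7.36 and 8.14 CPM in parental cells (log2 fold change -5.62 with SE 0.35, edgeR adjusted p = 5.12e-08), kept 16.2 and 13.5 CPM in clone 2. MAGE-A genes are near-identical copies, so reads may be split among them. Of their neighbours, CSAG1 was at 0.206 and 0.0835 CPM in clone 4, against 23.8, 25.1 and 23.4 CPM in parental cells (log2 fold change -7.24 with SE 0.28, edgeR adjusted p = 4.75e-10). The receptor subunit GABRA3 was at 0.206 and 0.0835 CPM in clone 4, against 23.9, 19.4 and 19 CPM in parental cells (log2 fold change -7.02 with SE 0.32, edgeR adjusted p = 2.12e-09). The lowest run of 25 genes on the X chromosome, from CXorf40B to PNCK, had a median log2 fold change of -1.88. Any of the genes just named that lie in the run were not left out of its median.
DSCAM-AS1, a long noncoding RNA of luminal breast cancer, had 1 and 0 counts in clone 4 and 148, 284 and 192 counts in parental cells (a ratio of summed counts of 388, lower in clone 4, with an exact 95% interval of 69.4 to 15400, edgeR adjusted p = 3.47e-08); no source used here says whether counting used strand, so reads of DSCAM, which had 0 and 0 counts in clone 4 and 12, 6 and 7 counts in parental cells, cannot be told apart from it. PMP22, a myelin membrane protein, was at 0.275 and 0.25 CPM in clone 4, against 98.2, 94.8 and 80.7 CPM in parental cells (log2 fold change -8.39 with SE 0.23, edgeR adjusted p = 1.42e-11), and near absent from clone 2 as well (0.341 and 0.354 CPM). Of the genes switched on, the sulfatase ARSJ had 173 and 114 counts in clone 4 and 1, 1 and 0 counts in parental cells (a ratio of summed counts of 231, higher in clone 4, with an exact 95% interval of 63.3 to 1910, edgeR adjusted p = 9.07e-09), and the phosphodiesterase PDE9A had 68 and 66 counts in clone 4 and 0, 0 and 1 counts in parental cells (a ratio of summed counts of 215, higher in clone 4, with an exact 95% interval of 38 to 8570, edgeR adjusted p = 1.14e-07). All 3 genes switched on, ARSJ, PDE9A and the secreted protein CRISP1, were also read in clone 2.

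Whole chromosomes were shifted in clone 4. Of 243 tested genes on chromosome 13, 203 (83.5%) fell and 4 (1.65%) rose, against 22.3% and 22.1% over all genes. Their median log2 fold change was -1.15. The medians per library, as log2 ratios to the parental mean, were -0.995 and -1.10 in clone 4, -0.508 and -0.517 in clone 2, and 0.015, -0.044 and 0.025 in parental cells, so that the groups did not overlap and clone 2 lay between. No run of 25 neighbouring chromosome 13 genes had a median above -0.832, and the lowest, near the end of the chromosome from ANKRD10-IT1 to CDC16, was at -1.73. The 4 genes that rose were GJB2, N4BP2L1, SPATA13 and SPRY2, named after their values were seen; GJB2, a gap-junction protein, was at 11.1 and 9.43 CPM in clone 4, against 1.32, 1.07 and 2.49 CPM in parental cells (log2 fold change 2.68 with SE 0.26, edgeR adjusted p = 3.22e-06). SPRY2 was not called without clone 4 replicate 1, clone 4 replicate 2, parental replicate 3, clone 2 replicate 1 or clone 2 replicate 2 (edgeR adjusted p between 0.075 and 0.138).
On chromosome 15, 318 of 567 tested genes (56.1%) fell, with a median of -0.49, and on chromosome 9, 286 of 653 (43.8%), with a median of -0.363. On chromosome 9 the shift was not even along its length: the lowest run of 25 genes, from LINC01508 to MIRLET7DHG, had a median of -1.16, and the highest, from VCP to GLIPR2, of 0.286. Chromosome 16 had a run at -1.13, from LPCAT2 to CCDC102A, which lay beside a chromosome median of -0.202. Its highest run, from RP11-61A14.1 to HSD11B2, was at 0.593, so chromosome 16 was not lower along its whole length. On chromosome 14, 327 of 583 tested genes (56.1%) rose and 23 fell, with a median of 0.494 in clone 4 against parental cells. Its highest run, from ZFHX2 to NEDD8, had a median of 1.30 and holds the interferon genes IRF9, PSME1 and PSME2.
Clone 2 shared the rise on chromosome 14, with a median of 0.458 against parental cells and 0.017 between the clones, and chromosomes 13, 15, 9 and 16 were lower in clone 4 than in clone 2, with medians of -0.62, -0.232, -0.275 and -0.352 between them. Chromosomes 9, 13, 15 and 16 held 13.3% of the tested genes and 28.6% of those that fell. The comparison of each clone with parental cells uses the same parental libraries. Copy number was not measured, and its part in these shifts was not tested.

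**Figure D3:**
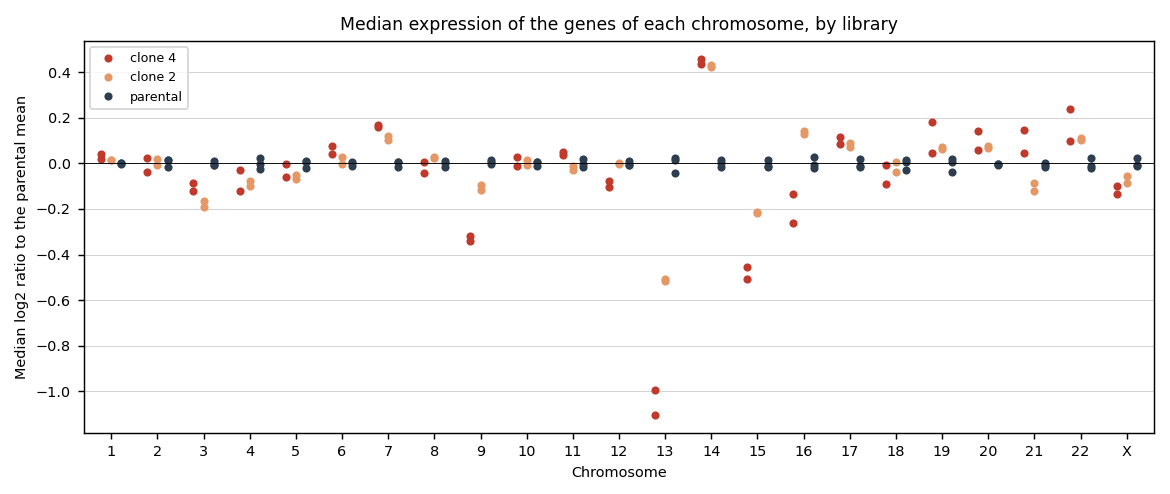
Median over the tested genes of each chromosome of the log2 ratio to the parental mean, on CPM + 0.5, 1 point a library, with clone 4 in red, clone 2 in orange and parental cells in dark blue. Chromosome 13 is lowest in clone 4, at -0.995 and -1.10, with clone 2 at about the midpoint, and chromosome 14 is above 0 in both clones.

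**Figure D4:**
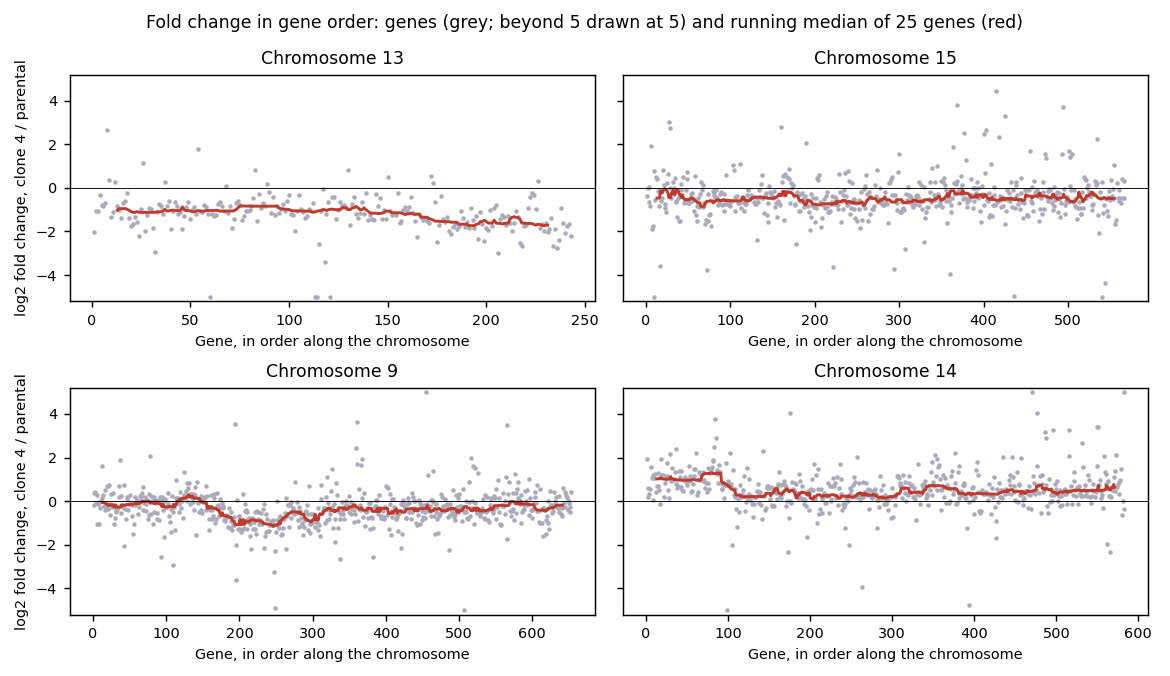
Log2 fold change of clone 4 over parental cells for each tested gene (grey points, drawn at 5 where beyond it) in order along chromosomes 13, 15, 9 and 14, with the running median of 25 genes in red. Chromosome 13 lies below 0 along its whole length and lowest near its end, chromosome 9 dips in 1 stretch, and chromosome 14 is highest near its start.

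Set against both other lines, 1492 genes (8.52% of those tested) were called higher in clone 4 than in parental cells and than in clone 2, and 1755 (10%) lower than in both. Called in opposite directions in the clones against parental cells, and apart between them, were 452 genes (2.58%). Ranked by the smaller of their 2 fold changes, the genes highest above both included CITED1, a transcriptional co-activator, at 24.4 and 24.2 CPM in clone 4, against 4.01 and 3.95 CPM in clone 2 and 4.29, 4.8 and 1.17 CPM in parental cells. CRABP1, which binds retinoic acid, was at 11.9 and 13 CPM in clone 4, against 2.48 and 2.36 CPM in clone 2 and 1.4, 1.42 and 0.953 CPM in parental cells. CITED1 rose by 2.81 (SE 0.33) against parental cells and was 2.61 above clone 2, and CRABP1 rose by 3.29 and was 2.37 above clone 2. TNNI3, REEP2 and ARHGAP15 rose by 2.13, 2.12 and 2.46 and were above clone 2 by 2.13, 2.18 and 1.95. The genes lowest below both were NDN, RCBTB1, LDHB, RB1, the MAGE-A antigens MAGEA1 and MAGEA3, the scavenger receptor SCARA3, CD36, GABRA3 and the adhesion molecule L1CAM. Of these, MAGEA3 and GABRA3 were far below parental cells in clone 2 too (log2 fold changes of clone 2 against parental cells -4.88 and -3.16). Clone 2 had 0.341 and 0.354 CPM of MAGEA3, from 4 and 6 counts, and 2.39 and 2.24 CPM of GABRA3. SCARA3 was at 1.1 and 0.668 CPM in clone 4, against 18.2, 17.8 and 26.3 CPM in parental cells (log2 fold change -4.51 with SE 0.28, edgeR adjusted p = 5.45e-08), and at 16.4 and 13.9 CPM in clone 2. L1CAM was at 2.27 and 2 CPM in clone 4, against 25.4, 22.1 and 54.5 CPM in parental cells (log2 fold change -3.98 with SE 0.56, edgeR adjusted p = 0.00201), with no overlap between the groups although parental replicate 3 was above the other parental libraries. L1CAM was not called without clone 4 replicate 1 or clone 4 replicate 2 (edgeR adjusted p between 0.05 and 0.0622).

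Among the genes with the most reads, those at least 2-fold higher included the paraspeckle RNA NEAT1, at 1882 and 1996 CPM in clone 4, against 726, 1018 and 776 CPM in parental cells (log2 fold change 1.21 with SE 0.13, edgeR adjusted p = 7.61e-06), with the groups far apart. ZNF703, an oncogene of luminal breast cancer, was at 369 and 426 CPM in clone 4, against 164, 164 and 128 CPM in parental cells (log2 fold change 1.39 with SE 0.12, edgeR adjusted p = 8.47e-07). The galectin LGALS3, on chromosome 14, the surface protein LY6E and RHPN1 rose by 1.10, 1.06 and 1.02. Those at least 2-fold lower included the cytoskeletal actin ACTG1, at 1154 and 1107 CPM in clone 4, against 2551, 2470 and 2062 CPM in parental cells (log2 fold change -1.06 with SE 0.11, edgeR adjusted p = 7.64e-06). The transferrin receptor TFRC, which brings iron into the cell, was at 339 and 273 CPM in clone 4, against 882, 749 and 738 CPM in parental cells (log2 fold change -1.37 with SE 0.12, edgeR adjusted p = 1.73e-06). In both the clone 4 libraries lay below every parental library. APP, HNRNPK, ANXA2 and ARL6IP1 fell, with log2 fold changes of -1.02, -1.07, -1.5 and -1.07, the last 3 on chromosomes 9, 15 and 16. MAGED2 was at 298 and 287 CPM in clone 4, against 971, 1064 and 535 CPM in parental cells (log2 fold change -1.55 with SE 0.25, edgeR adjusted p = 0.00123), with parental replicate 3 closest to clone 4. MAGED2 was not called without clone 4 replicate 2 (edgeR adjusted p = 0.0707).

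Of the genes with the largest falls that are not named above, the cholinesterase BCHE was at 1.03 and 0.751 CPM in clone 4, against 33.2, 32.2 and 65.5 CPM in parental cells (log2 fold change -5.58 with SE 0.47, edgeR adjusted p = 1.86e-05). The orphan nuclear receptor NR2F1 was at 0.344 and 0.167 CPM in clone 4, against 8, 9.73 and 14 CPM in parental cells (log2 fold change -5.28 with SE 0.41, edgeR adjusted p = 3.69e-07). Both were low in clone 2 too, BCHE at 0.768 and 0.826 CPM and NR2F1 at 0.341 and 0.236 CPM. Of the genes with the largest rises, GLYATL3 was at 13.9 and 10.3 CPM in clone 4, against 0.247, 0.356 and 0.0733 CPM in parental cells (log2 fold change 5.65 with SE 0.31, edgeR adjusted p = 1.45e-08). Clone 2 had 14.1 and 14.4 CPM of GLYATL3. SOHLH2, a germ-cell transcription factor on chromosome 13, and SPDYC, of the Speedy family of CDK activators, had 0 counts in clone 4. Parental cells had 57, 89 and 80 counts of SOHLH2 (at least 46.8-fold lower with the group's floor at 3 counts, edgeR adjusted p = 3.19e-07). They had 42, 49 and 39 counts of SPDYC (at least 26.9-fold lower with the group's floor at 3 counts, edgeR adjusted p = 5.93e-06). Clone 2 read both, SOHLH2 at 1.45 and 1.36 CPM and SPDYC at 1.2 and 0.59 CPM.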

How the data were processed

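Total RNA of T47D cells was sequenced; no source used here names the strandedness or the counting tool. Per the submitters' processing notes the tools were CASAVA, FastQC and STAR with the hg19 build. The authors deposited raw counts per gene for 63677 genes in one table; every value column matched a library (0 unmatched), and features with no gene symbol, which were kept, took 1.02% to 1.41% of the counts. Counts were tested with edgeR 4.0.16 (limma 3.58.1, R 4.3.3): quasi-likelihood test with robust estimates, TMM scaling, at least 10 counts by edgeR's expression filter, all 7 libraries in 1 fit with 3 group means, contrast clone 4 minus parental, Benjamini-Hochberg adjusted p under 0.05 over 17502 genes. No 2 libraries agreed within sampling noise, but the 2 clone 2 libraries came near it, with a chi-square per degree of freedom of 1.5. It was 13.2 for the 2 clone 4 libraries and 5.48 to 17.5 among parental libraries, and all share 1 estimate of the spread. The test was tried on simulated data first. Where a group had 0 counts, its fold was bounded by taking 3 counts as the group's floor; intervals are exact 95% intervals of a ratio of counts, and intervals and floors cover counting error only, since reads without molecular identifiers are not independent molecules.

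Named genes are the 15 highest and 15 lowest fold changes with a mean of at least 2 log2 CPM, the 10 furthest above and below both other lines, the 10 most abundant changed at least 2-fold each way, the switched genes of most counts, called members of each gene list with the largest folds, and members a list's order of roles needs. A fixed set of 24 genes, among them RB1, CDK4, STAT3, ESR1 and BRCA1, was named whatever their values. The libraries compared, the 55 gene lists and these rules were chosen with earlier results of these data known, so counts over lists describe and do not test. Gene symbols were placed on chromosomes by a GRCh38 annotation (16941 of the tested genes placed, 561 not), used only for chromosome and order; promoter windows came from RefSeq GRCh38.p14 (11739 tested genes matched). Alternatives were DESeq2 1.42.0, its scaling, other filters, a fold test, a fit of 5 libraries, a replicate block and leaving out each library. Some genes of the lists are not reported here by name.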

Additional observations from a re-analysis of the deposited data

Results flagged for a closer look

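Against parental cells, 452 genes (2.58% of those tested) were called in opposite directions in clone 4 and clone 2 and were also called apart between the clones, 257 of them higher in clone 4 and lower in clone 2, and 195 lower in clone 4 and higher in clone 2. Both clones were compared with the same parental libraries. The genes given are the 5 in each direction whose smaller fold of the 2 against parental cells was the largest, and the log2 differences are clone 4 minus clone 2 from edgeR's quasi-likelihood test. GFRA1, the co-receptor through which GDNF acts on RET, was at 10.8 and 11.3 CPM in clone 4, 0.171 and 0.236 CPM in clone 2 and 3.3, 2.49 and 1.17 CPM in parental cells, a log2 difference of 5.67. The secreted hormone STC1 differed by 2.25, with 39.8 and 34.3 CPM in clone 4 and 6.83 and 8.61 CPM in clone 2. CCNO and MCIDAS, neighbouring genes of the program that builds multiple cilia, differed by 2.16 and 2.09, and TMEM256 by 1.87. CCNO was not called against parental cells without clone 4 replicate 2 (edgeR adjusted p = 0.113).

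FOS, an immediate early transcription factor, was at 5.98 and 3 CPM in clone 4, 163 and 154 CPM in clone 2 and 15.3, 9.19 and 8.14 CPM in parental cells, a log2 difference of -5.11. FOS was not called against parental cells without clone 4 replicate 2 (edgeR adjusted p = 0.11). The insulin receptor substrate IRS1 was at 5.22 and 4.01 CPM in clone 4 and 37.9 and 41.5 CPM in clone 2, a log2 difference of -3.09. The actin-binding protein CALD1 differed by -2.98, TINCR by -2.48 and the transcriptional co-regulator LMO4 by -2.09. No group has 4 or more libraries, so single libraries standing apart could not be tested within a group.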

How the results depend on the processing

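Over the alternatives run, no called gene followed here changed direction. Calls higher in clone 4 made up 46.2% to 52.3% of all calls, so which direction had more calls was not stable, and with DESeq2's scaling in edgeR 3891 were higher and 3882 lower. Nuclear oxidative phosphorylation genes leaned upward (17 higher and 13 lower) without clone 4 replicate 1. Testing against a fold of 1.5 left 2382 calls, 1246 higher and 1136 lower, with 166 higher and 341 lower than both other lines. With 1 library left out, between 5355 and 8060 genes were called, and those higher than both other lines ranged from 726 to 1667 and those lower than both from 1036 to 1946. Fewest were found without clone 4 replicate 2 (858 and 1089), clone 2 replicate 1 (815 and 1119) or clone 2 replicate 2 (726 and 1036), settings that leave 1 library in a line, assumed to vary like the others. Leaving out clone 4 replicate 1 does so too, and gave 1509 and 1764. With at most 1 count on one side and at least 50 on the other, 6 genes were on and 27 off. The other settings kept every count over all genes within 1.5 times: 7773 calls with DESeq2's scaling in edgeR, 6499 with DESeq2, 8012 without the filter, 7601 with a stricter one, 6727 in a fit of the 5 libraries alone and 7774 without mitochondrial transcripts, the last added after the data were seen. Clone 4 and parental libraries share 2 replicate numbers, which is too few to take them as pairs; deviations from the group means correlated at 0.27 for number 1 and 0.163 for number 2, and with the replicate block 8551 genes were called. Clone 2 numbers correlated at -0.122 with those of clone 4, and crossing them, added after the data were seen, gave 9233 calls. With 2 libraries in clone 4, small differences and genes of few counts are the least certain.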

Other observations

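Several groups of genes had members called in both directions in clone 4. Of 38 genes of the TGF-beta family, 8 rose and 13 fell against parental cells, where 22.1% of all genes rose and 22.3% fell. The co-receptor TGFBR3 was at 4.46 and 4.34 CPM in clone 4, against 0.495, 0.356 and 0.44 CPM in parental cells (log2 fold change 3.35 with SE 0.28, edgeR adjusted p = 9.02e-07), while the signalling receptor TGFBR1, on chromosome 9, was at 20.7 and 17.4 CPM in clone 4, against 58.7, 47.8 and 53.9 CPM in parental cells (log2 fold change -1.48 with SE 0.13, edgeR adjusted p = 1.12e-06). The groups did not overlap in either. The ligand TGFB2 and the decoy receptor BAMBI fell, with log2 fold changes of -1.81 and -1.21. Of 29 p53 targets, 9 rose and 9 fell. The antiproliferative gene BTG2 and the death gene BBC3 (PUMA) rose by 1.25 and 0.90, and the kinase PLK2 fell, with a log2 fold change of -1.45. MDM2, the ligase that degrades p53, fell, with a log2 fold change of -0.44 (edgeR adjusted p = 0.00411).

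Of 25 ABC transporters, many of which move drugs or lipids across membranes, 6 rose and 9 fell. In all 60% of them were called, against 44.4% of all genes. ABCC8, a subunit of a potassium channel, was at 5.29 and 6.26 CPM in clone 4, against 1.24, 1.07 and 0.733 CPM in parental cells (log2 fold change 2.50 with SE 0.26, edgeR adjusted p = 5.16e-06). The keratinocyte lipid transporter ABCA12 was at 3.02 and 2.5 CPM in clone 4, against 23.7, 23.8 and 18.2 CPM in parental cells (log2 fold change -2.97 with SE 0.20, edgeR adjusted p = 9.57e-08). Clone 4 lay above every parental library for ABCC8 and below every one for ABCA12. Of the guidance genes, PLXNA2, a semaphorin receptor, was at 18.2 and 18.7 CPM in clone 4, against 2.72, 1.96 and 2.64 CPM in parental cells (log2 fold change 2.93 with SE 0.17, edgeR adjusted p = 2.39e-08). The DNA methyltransferase DNMT3A rose by 1.24, and the cytidine deaminase APOBEC3F by 1.99. The nuclear receptor NR5A2, which can drive estrogen receptor genes in breast cancer, was at 12.3 and 10.3 CPM in clone 4, against 2.97, 2.73 and 2.2 CPM in parental cells (log2 fold change 2.10 with SE 0.19, edgeR adjusted p = 1.44e-06), with no overlap. DEPTOR, an inhibitor of mTOR, rose by 1.32.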
